A study of Rattus norvegicus with 120 samples.

Results

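This account follows 9 genes that fatty acids are known to induce in heart through the PPARs: Angptl4, Lpl, Cd36, Fabp3, Acsl1, Plin2, Plin5, Ucp2 and Ucp3. They were taken by their deposited symbol, which found 8 of the 9 among the 30560 genes of the count tables. Cd36, a fatty acid transporter, matched no symbol and was not analysed here. The study took heart and kidney of ZSF1 rats aged 30 weeks for poly-A RNA sequencing, with 12 groups of 10 libraries, and heart is described first with kidney beside it. Obese ZSF1 rats carry no working leptin receptor and develop obesity, diabetes and heart failure with preserved ejection fraction. Lean ZSF1 rats of the same strain were the comparison group in study A. In study A, obese rats on BT2, obese rats on vehicle and lean rats on vehicle were profiled. In study B, obese rats on BT2 plus empagliflozin, obese rats on empagliflozin and obese rats on vehicle were profiled. The agents were given in chow, the labels give no dose, and every group of study B is obese, so it has no lean animals of its own. BT2 blocks BDK, a kinase that restrains branched-chain amino acid breakdown, and empagliflozin blocks the renal glucose transporter SGLT2.

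Fatty acids and their derivatives bind PPAR alpha, delta and gamma, nuclear receptors that pair with RXR on DNA and raise transcription of genes for lipid uptake, storage and oxidation. The heart draws most of its energy from fatty acids, and these genes span the route that a fatty acid takes into the cardiomyocyte. Lpl, lipoprotein lipase, releases fatty acids from circulating triglyceride at the capillary wall, and Angptl4 is a secreted inhibitor of Lpl. Fabp3 carries fatty acids within the heart cell, and Acsl1 couples them to coenzyme A. Plin2 and Plin5 coat lipid droplets, and Ucp2 and Ucp3 are carriers of the inner mitochondrial membrane.

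Heart libraries held 6.74 to 23.6 M counts (M, 1000000), with a median of 12.2 M. Kidney libraries had a median of 10.1 M, and 2 of them held under 1 M. These were BT2 replicate 2 of study A at 0.0228 M, also flagged for another tissue's transcripts, and vehicle replicate 8 of study B at 0.776 M. Levels are given as CPM, counts per 1000000 counts of the library after scaling, and the 2 shallow kidney libraries are left out of means but kept in tests. In heart, 7 of 8 cardiomyocyte markers were found, and their summed level was between 38052 and 61062 CPM in every library, while kidney tubule markers had group medians of 1.10 to 1.79 CPM. One lean heart, replicate 8, held 161 CPM of those tubule markers and was kept in the tests. Without it, Angptl4 in obese against lean hearts had a log2 fold change of 3.84 ± 0.17, and the calls described for that comparison stood. In 11 heart libraries atrial Myl7 exceeded 5 times, or the skeletal muscle myosin Myh4 exceeded 100 times, the heart median, and 6 kidney libraries carried muscle or liver transcripts. Replicates 1 to 5 of each group were on plate 1 and replicates 6 to 10 on plate 2, per the labels. Plate was a term in the fits unless stated, and values within each plate are given for the results that turn on it. In whole tissue, fewer cells of a type and less RNA per cell cannot be told apart.

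For 8 of the 9 genes, 9 promoters from 250 bases before to 50 bases after an annotated start were read from RefSeq for build GRCr8, which is not the mRatBN7.2 build that the submitters' processing notes name. Plin2 has a pair of them, Cd36 is included, and none was used for Lpl. The PPAR-RXR pair is known to bind repeats of AGGTCA, so this hexamer was searched on both strands, the other strand reading TGACCT. It was held by the promoters of Ucp3 and Plin5 alone among these genes, and by 16.2% of 33469 rat promoters of the same length. The Ucp3 promoter held it at 155 and at 50 bases before the start, and 1.81% of all promoters held it more than once. The direct repeat of the hexamer with 1 open base between its copies was in none of them and in 0.0538% of all promoters, and the same repeat with the fourth base of each copy left open was in none of them and in 0.415%. Both were searched on both strands. These are matches of letters in a short window, and binding was not measured. The promoters of Angptl4, which differed most between obese and lean hearts, and of Ucp3 and Plin5 are shown with the hexamer in capitals.
Angptl4, chr7:15258632-15258931, minus strand: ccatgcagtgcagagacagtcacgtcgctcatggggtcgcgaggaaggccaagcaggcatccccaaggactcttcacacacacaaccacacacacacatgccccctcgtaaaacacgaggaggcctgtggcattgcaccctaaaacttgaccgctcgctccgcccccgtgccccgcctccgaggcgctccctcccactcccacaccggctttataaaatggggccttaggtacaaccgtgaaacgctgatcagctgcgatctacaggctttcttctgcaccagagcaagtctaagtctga
Ucp3, chr1:164227660-164227959, plus strand: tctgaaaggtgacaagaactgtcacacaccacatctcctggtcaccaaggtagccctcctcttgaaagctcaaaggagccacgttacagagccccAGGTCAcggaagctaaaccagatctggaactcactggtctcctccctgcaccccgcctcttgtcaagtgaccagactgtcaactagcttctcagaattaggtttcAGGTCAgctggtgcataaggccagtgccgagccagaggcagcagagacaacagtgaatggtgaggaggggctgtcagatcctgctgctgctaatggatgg
Plin5, chr9:1033235-1033534, minus strand: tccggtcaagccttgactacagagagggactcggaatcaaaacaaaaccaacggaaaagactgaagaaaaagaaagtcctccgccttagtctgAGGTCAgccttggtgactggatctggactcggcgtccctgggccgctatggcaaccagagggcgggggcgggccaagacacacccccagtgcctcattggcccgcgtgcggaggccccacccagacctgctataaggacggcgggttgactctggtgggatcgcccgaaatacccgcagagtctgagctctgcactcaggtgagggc

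Study A first asked how obesity changed these genes in heart. Angptl4, Ucp3 and Plin2 rose in obese vehicle hearts relative to lean vehicle hearts, and Lpl fell. So 4 of the 8 genes passed the test, edgeR's quasi-likelihood F test with Benjamini-Hochberg adjustment over all genes at an adjusted p under 0.05, which is used throughout. Across all 12694 genes tested, 5.36% passed, 3.32% as higher and 2.03% as lower. The median log2 fold change of the 8 genes was 0.38, against 0.00 over all genes.

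Angptl4 (ENSRNOG00000007545) ranged over 33.6, 39.3 and 69.0 CPM (lowest, median and highest) in obese vehicle hearts, and over 1.43, 3.35 and 4.83 CPM in lean vehicle hearts. Its lowest obese heart was thus well above its highest lean heart. The means were 45.1 ± 12.1 CPM in obese hearts and 3.13 ± 0.928 CPM in lean hearts (SD, n = 10 each), a 14.4-fold ratio. The log2 fold change was 3.86 ± 0.17 (SE; adjusted p = 4.31e-13, edgeR), with 3.88 on plate 1 and 3.82 on plate 2. This was the highest log2 fold change among the 12694 genes tested in that comparison.

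Ucp3 (ENSRNOG00000017716) ranged over 22.1, 33.7 and 51.0 CPM in obese vehicle hearts and over 6.66, 14.7 and 21.3 CPM in lean vehicle hearts. The ranges did not overlap, which was so for Angptl4 and Ucp3 among these genes and for 0.662% of all genes tested. Its log2 fold change was 1.23 ± 0.17 (adjusted p = 4.09e-05, edgeR), with 1.14 on plate 1 and 1.32 on plate 2. Ucp2 (ENSRNOG00000017854) averaged 262 ± 49.0 CPM in obese hearts and 208 ± 50.9 CPM in lean hearts, and its log2 fold change of 0.33 ± 0.12 did not pass (adjusted p = 0.127).

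Plin2 (ENSRNOG00000007060) averaged 71.1 ± 8.85 CPM in obese vehicle hearts and 53.4 ± 6.58 CPM in lean vehicle hearts, and 10 of 10 obese hearts were above the lean median. Its log2 fold change was 0.43 ± 0.07 (adjusted p = 0.000404, edgeR). Plin5 (ENSRNOG00000047860) averaged 45.9 ± 10.1 CPM in obese hearts and 33.9 ± 13.5 CPM in lean hearts. All 10 obese hearts were again above the lean median, but lean hearts alone spread between 14.9 and 60.7 CPM, and the log2 fold change of 0.45 ± 0.18 did not pass (adjusted p = 0.165).

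Lpl (ENSRNOG00000012181) ranged over 894, 1106 and 1530 CPM in obese vehicle hearts and over 1191, 1792 and 2286 CPM in lean vehicle hearts. All 10 obese hearts were below the lean median, with some overlap of the ranges. The log2 fold change was -0.53 ± 0.09 (adjusted p = 0.000409, edgeR), with -0.65 on plate 1 and -0.43 on plate 2. Fabp3 (ENSRNOG00000012879) averaged 2665 ± 226 CPM in obese hearts and 2403 ± 312 CPM in lean hearts, and Acsl1 (ENSRNOG00000010633) 483 ± 137 CPM in obese hearts and 485 ± 164 CPM in lean hearts. Neither passed, with log2 fold changes of 0.17 ± 0.08 for Fabp3 (adjusted p = 0.291) and 0.03 ± 0.15 for Acsl1 (adjusted p = 0.941). The 4 calls stood in all 20 fits that left out 1 library, and on plate 2 alone, with 5 hearts per group, only Angptl4 passed. With all 6 heart groups in 1 fit Ucp2 (adjusted p = 0.0298) and Plin5 (adjusted p = 0.0338) passed as well.

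**Figure D1:**
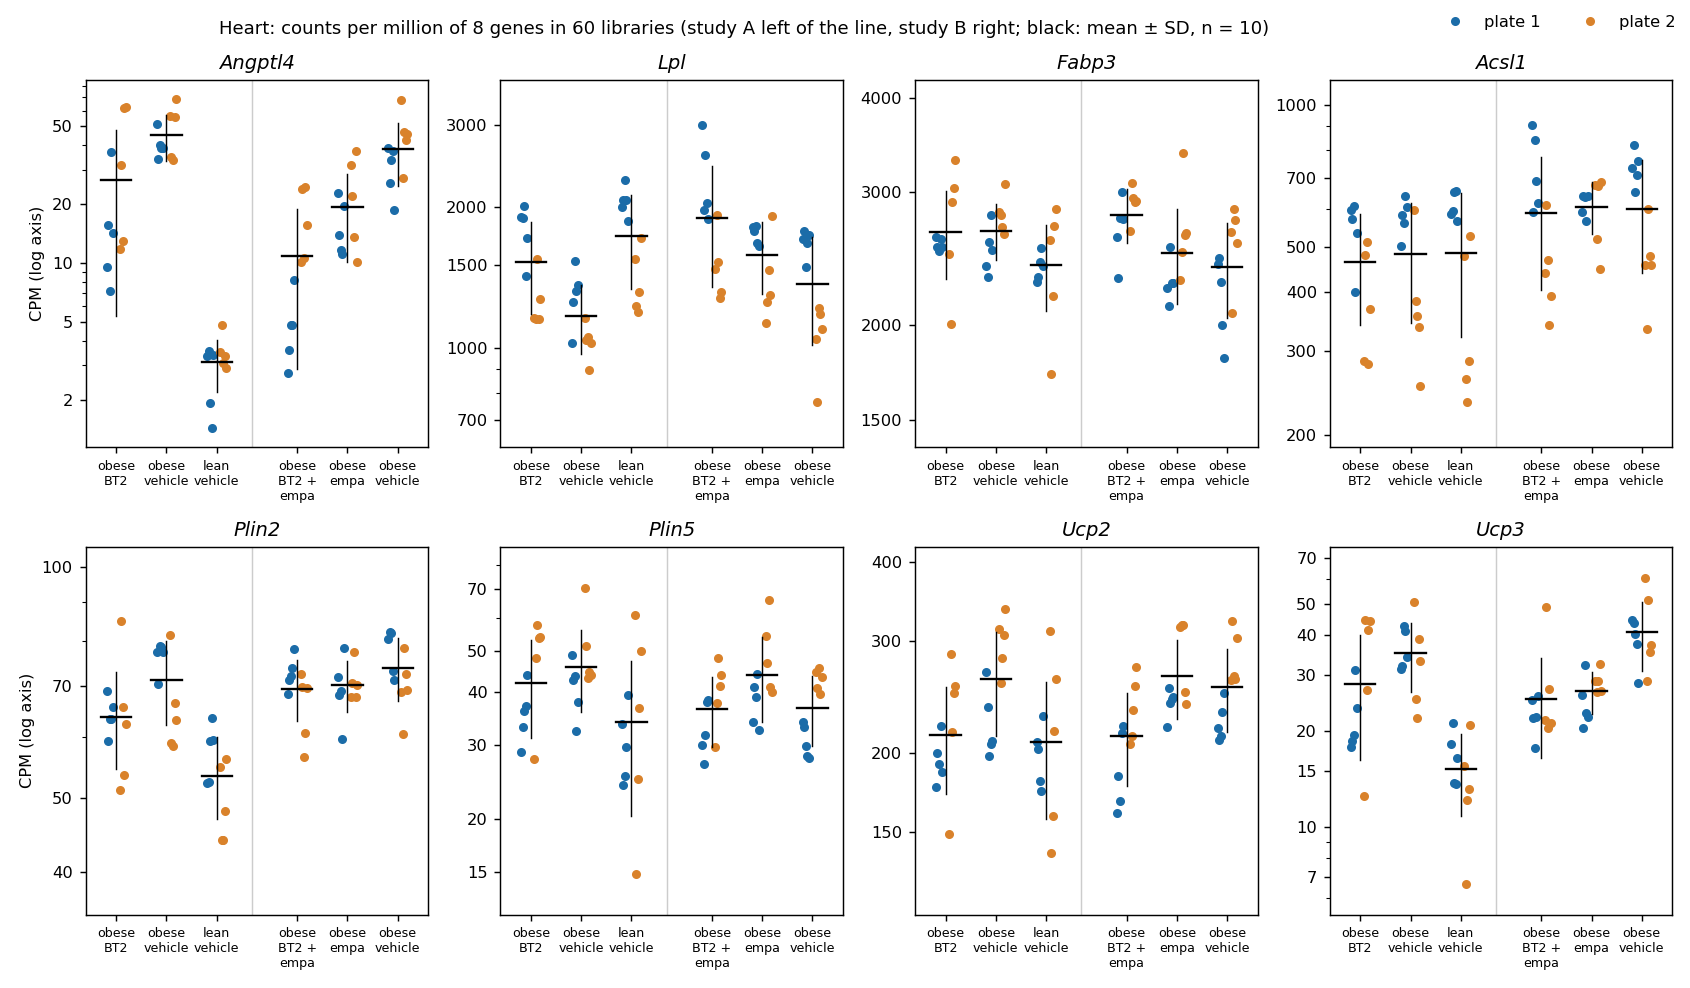
CPM (log axes) of the 8 genes in the 60 heart libraries, with study A left of the grey line and study B right of it, plate 1 in blue and plate 2 in orange, and the mean ± SD (n = 10) in black. Angptl4 of the obese vehicle hearts lies between 33.6 and 69.0 CPM, above all lean hearts at 1.43 to 4.83 CPM, and the combination group of study B spreads between 2.75 and 24.4 CPM.

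Other PPAR targets were measured beside these genes. Of 24 such genes, mostly of fatty acid oxidation, 22 were tested in heart, 14 rose in obese vehicle hearts and 0 fell. Their median log2 fold change was 0.42. The smallest adjusted p belonged to Decr1 at 1.24 ± 0.08 (adjusted p = 3.52e-10), a reductase of unsaturated fatty acid oxidation. Also among the genes that rose were Pdk4 at 1.70 ± 0.17 (adjusted p = 6.29e-07), which switches off pyruvate dehydrogenase, and Ech1 at 0.78 ± 0.08 (adjusted p = 1.39e-06), an isomerase of the same oxidation route as Decr1. Pdk4 averaged 459 ± 143 CPM in obese hearts and 147 ± 47.8 CPM in lean hearts.

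Of 16 partners of lipolysis and lipid droplets, 10 were tested and 6 rose with obesity. Gpihbp1, which carries Lpl to the capillary lumen, had a log2 fold change of 1.42 ± 0.13 (adjusted p = 1.95e-07). G0s2, an inhibitor of the triglyceride lipase Pnpla2, stood at 0.84 ± 0.11 (adjusted p = 2.49e-05), while Pnpla2 itself had 0.38 ± 0.12 and did not pass (adjusted p = 0.0758). Cidea, a droplet fusion protein, stood at 0.59 ± 0.08 and Lipe, hormone-sensitive lipase, at 0.42 ± 0.10. Among 9 tested relatives of the uptake and activation genes, Fabp4 rose by a log2 fold change of 0.57 ± 0.15, and Acsl6, at -0.82 ± 0.14, and caveolin Cav1, at -0.37 ± 0.10, fell.

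None of the 8 receptors and coactivators passed (2 at an unadjusted p under 0.05). Ppara stood at 9.64 ± 3.22 CPM in obese vehicle hearts and 13.7 ± 4.67 CPM in lean vehicle hearts, a log2 fold change of -0.47 ± 0.20 (adjusted p = 0.214). The values were -0.23 ± 0.16 for Ppard (adjusted p = 0.479) and 0.08 ± 0.13 for Pparg (adjusted p = 0.800).

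Markers of other cell types also differed with obesity. The 7 adipocyte markers summed to 370 to 1112 CPM in obese hearts and 291 to 621 CPM in lean hearts, with both tested members, Cfd and Fabp4, higher, 5 of the 7 at 0 in at least 1 library of each group, and leptin at 0 in every obese vehicle heart. Of 7 macrophage markers Mrc1 and C1qa were higher, with sums of 51.8 to 108 CPM in obese hearts and 33.3 to 73.9 CPM in lean hearts. Of 5 atrial markers Nppa was higher, with sums of 486 to 3087 CPM in obese hearts and 359 to 1315 CPM in lean hearts. Of 6 endothelial markers Cdh5 was lower, with sums of 551 to 834 CPM in obese hearts and 623 to 944 CPM in lean hearts. Of 7 cardiomyocyte markers Myh6 was lower at -0.74 on the log2 scale, with sums of 40044 to 60764 CPM in obese hearts and 38052 to 61062 CPM in lean hearts. The part of these markers in the results was not tested. Leaving out obese replicate 10, the one heart of this comparison with another tissue's transcripts by the Myl7 and Myh4 criterion, gave log2 fold changes of 3.79 for Angptl4 and -0.54 for Lpl.

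The next comparison asked whether BT2 alone changed these genes in obese hearts. None of the 8 passed in study A (3 at an unadjusted p under 0.05, and 1, Lpl, with DESeq2), where 0.0558% of all genes passed. The median log2 fold change of the 8 genes was -0.14, against 0.01 over all genes.

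Angptl4 ranged over 7.21, 15.0 and 62.8 CPM in BT2 hearts and over 33.6, 39.3 and 69.0 CPM in vehicle hearts. BT2 hearts spread widely, 8 of 10 below the vehicle median and 2 above it. The log2 fold change of -0.86 ± 0.30 did not pass (adjusted p = 0.367), and it was -1.30 ± 0.33 on plate 1 and -0.46 ± 0.42 on plate 2. On plate 1 the means were 16.7 ± 11.7 CPM in BT2 hearts and 40.5 ± 6.42 CPM in vehicle hearts, and on plate 2 they were 36.2 ± 25.1 CPM in BT2 hearts and 49.8 ± 15.2 CPM in vehicle hearts (SD, n = 5 each).

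Lpl ranged over 1149, 1485 and 2007 CPM in BT2 hearts and over 894, 1106 and 1530 CPM in vehicle hearts, with 10 of 10 BT2 hearts above the vehicle median. Its log2 fold change was 0.37 ± 0.08 (adjusted p = 0.0991, edgeR), and in the authors' deposited table its adjusted p was 0.00711. Ucp2 stood at -0.28 ± 0.10 (adjusted p = 0.345), Ucp3 at -0.35 ± 0.20 (adjusted p = 0.745) and Plin2 at -0.15 ± 0.08 (adjusted p = 0.737), none of them past the threshold. Ucp3 had -0.72 ± 0.15 on plate 1 and 0.00 ± 0.31 on plate 2, and whether the plates differed was not tested. Pdk4 had a log2 fold change of -0.65 ± 0.21 and did not pass either (adjusted p = 0.310), and the summed skeletal muscle markers reached 1318 CPM in a BT2 heart against at most 113 CPM in vehicle hearts. None of the tested genes in the other lists passed here: 0 of 22 other PPAR targets (3 at an unadjusted p under 0.05), 0 of 8 receptors and coactivators (0), 0 of 10 lipolysis and droplet genes (3) and 0 of 9 relatives (0). Ppara had 0.19 ± 0.17, Gpihbp1 -0.04 ± 0.17, G0s2 -0.30 ± 0.12 and Pnpla2 -0.05 ± 0.09 on the log2 scale.

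Study B set empagliflozin against vehicle in obese hearts. Ucp3 fell, the 1 gene of the 8 that passed, where 0.107% of all 12167 genes tested passed. It averaged 26.7 ± 4.04 CPM in empagliflozin hearts and 40.8 ± 9.86 CPM in vehicle hearts, and 10 of 10 empagliflozin hearts were below the vehicle median. The log2 fold change was -0.62 ± 0.12 (adjusted p = 0.0387, edgeR), with -0.65 on plate 1 and -0.59 on plate 2. That call was close to the threshold: it stood in 9 of 20 fits that left out 1 library, with adjusted p-values between 0.00680 and 0.0932, and not without the plate term or with all 6 heart groups in 1 fit.

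Angptl4 ranged over 10.1, 16.8 and 37.1 CPM in empagliflozin hearts and over 18.7, 38.0 and 67.6 CPM in vehicle hearts. All 10 empagliflozin hearts were below the vehicle median, and the log2 fold change of -0.98 ± 0.21 missed the threshold (adjusted p = 0.0732, edgeR). It was -0.94 on plate 1, where it passed (adjusted p = 0.0194), and -1.01 on plate 2. In the authors' deposited table the adjusted p was 0.00797 for Angptl4 and 0.000327 for Ucp3. The other log2 fold changes were between -0.07 for Plin2 and 0.26 for Plin5, and none passed. Acsl1 had opposite signs on the plates, with -0.24 ± 0.07 on plate 1 (adjusted p = 0.0386) and 0.35 ± 0.15 on plate 2 (adjusted p = 0.562). Whether the plates differed was not tested. Of the 22 other PPAR targets 1 was called lower and 0 higher, and Pdk4 at -0.58 ± 0.14 did not pass (adjusted p = 0.137). Among the receptors and lipolysis genes, none of which passed (2 and 0 at an unadjusted p under 0.05), Ppara had 0.15 ± 0.19, Gpihbp1 -0.15 ± 0.12, G0s2 0.10 ± 0.10 and Pnpla2 0.02 ± 0.06. Atrial markers summed to 467 to 12690 CPM in empagliflozin hearts and 319 to 13252 CPM in vehicle hearts. Without the libraries carrying another tissue's transcripts, Angptl4 stood at -1.20 ± 0.24 (adjusted p = 0.118, edgeR) and Ucp3 at -0.78 ± 0.11 (adjusted p = 0.0156).

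BT2 plus empagliflozin against vehicle gave the most calls among the treated hearts. Angptl4, Ucp3 and Ucp2 fell, and Lpl and Fabp3 rose, so 5 of 8 passed, against 5.13% of all 12117 genes tested, 3.58% as higher and 1.55% as lower. The median log2 fold change of the 8 genes was -0.06, against -0.00 over all genes.

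Angptl4 ranged over 2.75, 9.14 and 24.4 CPM in combination hearts and over 18.7, 38.0 and 67.6 CPM in vehicle hearts. Every combination heart was below the vehicle median, and the means were 10.9 ± 8.0 CPM in combination hearts and 38.3 ± 13.7 CPM in vehicle hearts (SD, n = 10 each). The log2 fold change was -1.99 ± 0.24 (adjusted p = 2.30e-05, edgeR). The plates stood apart within the combination group, at 2.75 to 8.14 CPM on plate 1 and 10.1 to 24.4 CPM on plate 2, and the log2 fold change was -2.72 ± 0.25 on plate 1 and -1.45 ± 0.26 on plate 2 (adjusted p = 0.0655). Whether the effect differed between the plates was not tested.

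Ucp3 averaged 25.3 ± 8.79 CPM in combination hearts and 40.8 ± 9.86 CPM in vehicle hearts, a log2 fold change of -0.70 ± 0.15 (adjusted p = 0.00758, edgeR), and 9 of 10 combination hearts were below the vehicle median. The one above it, replicate 7 at 49.0 CPM, stood far from the next, at 27.2 CPM. Ucp2 averaged 213 ± 35.6 CPM in combination hearts and 254 ± 37.8 CPM in vehicle hearts, with a log2 fold change of -0.25 ± 0.07 (adjusted p = 0.0327).

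Lpl ranged over 1279, 1902 and 2998 CPM in combination hearts and over 764, 1350 and 1774 CPM in vehicle hearts. Its log2 fold change was 0.48 ± 0.09 (adjusted p = 0.00405, edgeR), with 0.44 on plate 1 and 0.49 on plate 2, neither of which passed alone. Fabp3 averaged 2801 ± 227 CPM in combination hearts and 2388 ± 342 CPM in vehicle hearts, a log2 fold change of 0.23 ± 0.07 at the edge of the threshold (adjusted p = 0.0498). Plin2 at -0.09 ± 0.06 (adjusted p = 0.399), Acsl1 at -0.03 ± 0.10 (adjusted p = 0.903) and Plin5 at 0.00 ± 0.08 (adjusted p = 0.993) did not pass.

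Skeletal muscle markers were called in this comparison. Their summed level was 8.81 to 1767 CPM in combination hearts and 6.24 to 19.5 CPM in vehicle hearts, with medians of 23.9 and 12.5 CPM. Mylpf, Actn3 and Myh4 were called higher of 4 tested markers, and no marker of the 6 was at 0 in any heart library. Myh4 is also a gene of the criterion for hearts with another tissue's transcripts. The cardiomyocyte markers Tnnt2, Tnni3 and Myl2 were also higher, as was Ttr, the 1 liver marker tested, at 0.41 on the log2 scale. Atrial markers summed to 579 to 3539 CPM in combination hearts and 319 to 13252 CPM in vehicle hearts. Without the libraries carrying another tissue's transcripts, Angptl4 stood at -2.18 ± 0.25 (adjusted p = 0.000455) and Ucp3 at -0.76 ± 0.17 (adjusted p = 0.0402). The calls of Lpl at 0.47 ± 0.11 (adjusted p = 0.0565), Fabp3 at 0.15 ± 0.06 (adjusted p = 0.353) and Ucp2 at -0.16 ± 0.09 (adjusted p = 0.512) were lost there. That setting left out vehicle replicates 4, 5, 7 and 10 and combination replicates 6, 8 and 9, so fewer hearts were compared. Whether the calls were lost through the smaller groups or the transcripts was not tested.

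**Figure D2:**
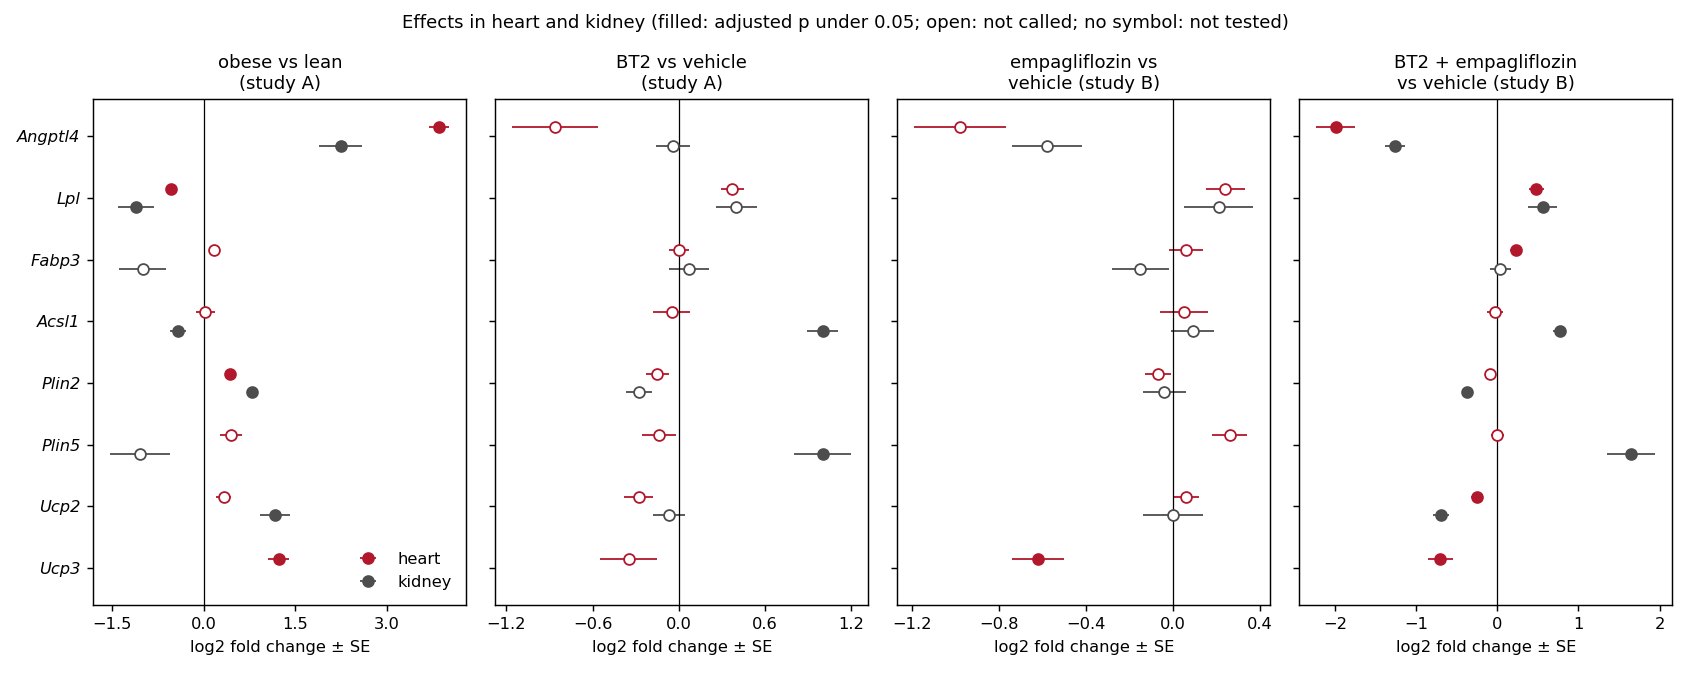
Log2 fold changes ± SE of the 8 genes in 4 comparisons, with heart in red above kidney in grey, filled where the adjusted p was under 0.05 and with no symbol where a gene was not tested. Angptl4 stands at 3.86 in heart and 2.25 in kidney for obese against lean, and at -1.99 in heart and -1.26 in kidney for BT2 plus empagliflozin against vehicle.

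Among the other PPAR targets, 4 of 22 fell with the combination and 0 rose. Among these 4, Pdk4 fell by 1.03 on the log2 scale (adjusted p = 0.000130), Decr1 by 0.28 (adjusted p = 0.0148) and Cpt1a, the gate of mitochondrial fatty acid import, by 0.32 (adjusted p = 0.0269). Their median was -0.09. In the list of lipolysis and droplet genes Dgat1, an enzyme of triglyceride synthesis, rose by 0.27 (adjusted p = 0.00462), while Gpihbp1 at -0.05 ± 0.11, G0s2 at -0.07 ± 0.14 and Pnpla2 at -0.04 ± 0.06 did not pass. None of the receptors and coactivators passed (1 at an unadjusted p under 0.05), with Ppara at 0.45 ± 0.18 (adjusted p = 0.148), Ppard at 0.16 ± 0.11 (adjusted p = 0.455) and Pparg at -0.24 ± 0.12 (adjusted p = 0.293).

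The obesity comparison of study A and the combination comparison of study B share no library. Of the 3 genes that rose with obesity, Angptl4, Ucp3 and Plin2, the first 2 fell with the combination, and Plin2 at -0.09 did not pass. Lpl, which fell with obesity, rose with the combination. Of the 14 other PPAR targets that rose with obesity, 13 had a log2 fold change below 0 with the combination and 4 were called lower, with a median of -0.11. Several of the 13 were near 0, such as Ech1 at -0.01 ± 0.07, Acadl at -0.03 ± 0.08 and Hadha at -0.04 ± 0.07. The same share over all genes that rose with obesity was not computed, so these counts are not read as particular to PPAR targets. The size of the opposite change varied: it was -1.99 for Angptl4 beside 3.86 with obesity, and -0.28 for Decr1 beside 1.24.

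**Figure D3:**
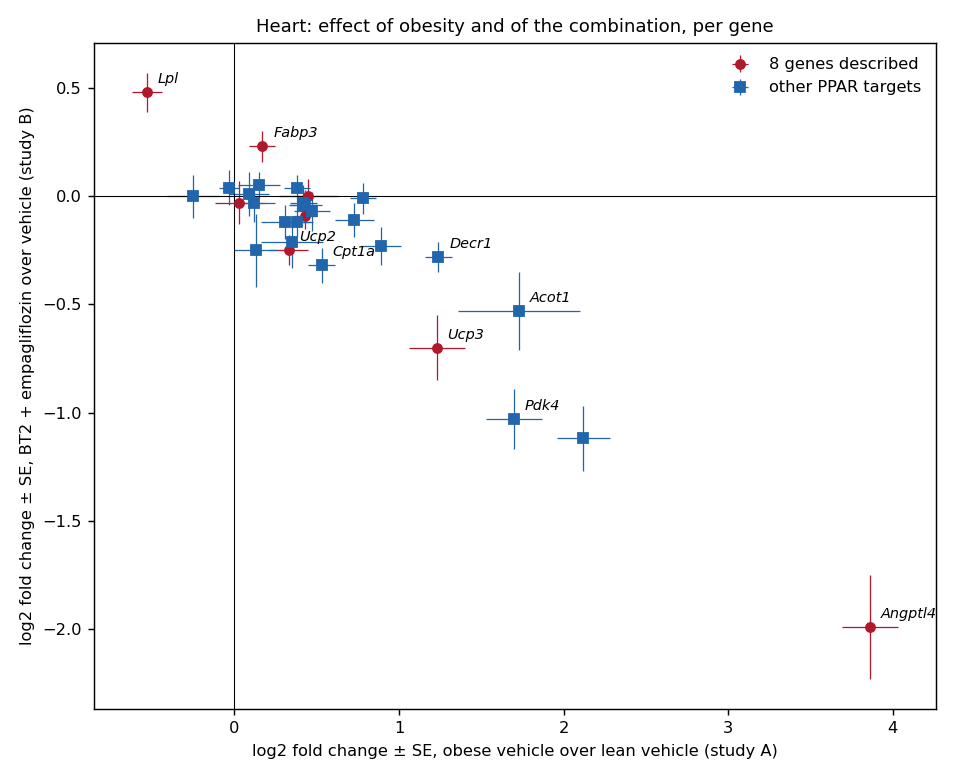
Log2 fold change ± SE in heart of obese vehicle over lean vehicle (study A, horizontal axis) and of BT2 plus empagliflozin over vehicle (study B, vertical axis), 1 point per gene, for the 8 genes in red and 22 other PPAR targets in blue. Angptl4 lies lowest at 3.86 and -1.99, and Lpl lies in the opposite corner at -0.53 and 0.48.

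Adding BT2 to empagliflozin was also compared directly. None of the 8 genes passed (5 at an unadjusted p under 0.05, and 1, Ucp2, with DESeq2, which gave no adjusted p for Angptl4), where 0.0249% of all 12049 genes passed. Angptl4 stood at 10.9 ± 8.0 CPM in combination hearts and 19.4 ± 9.22 CPM in empagliflozin hearts, a log2 fold change of -1.03 ± 0.28 (adjusted p = 0.254). It was -1.77 ± 0.26 on plate 1 (adjusted p = 0.0161) and -0.44 ± 0.34 on plate 2 (adjusted p = 0.639). Ucp2 had -0.32 ± 0.07 (adjusted p = 0.194), Lpl 0.24 ± 0.10 (adjusted p = 0.532) and Ucp3 -0.09 ± 0.13 (adjusted p = 0.925). Acsl1 had 0.22 on plate 1 and -0.41 on plate 2 and passed on neither, and whether the plates differed was not tested.

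Ordered by mean level in heart, Angptl4 was lowest in lean vehicle hearts at 3.13 CPM, then came combination hearts at 10.9, empagliflozin hearts at 19.4, BT2 hearts at 26.5, study B vehicle hearts at 38.3 and study A vehicle hearts at 45.1 CPM. Of these neighbours, each pair overlapped in range, and the 2 studies were not tested against each other. Ucp3 was also lowest in lean vehicle hearts at 15.2 CPM, between 25.3 and 28.1 CPM in the 3 drug groups, and at 35.2 and 40.8 CPM in the vehicle groups of studies A and B. Lpl was highest in combination hearts at 1899 CPM and lowest in study A vehicle hearts at 1166 CPM, with lean hearts at 1730 CPM. Plin2 was 53.4 CPM in lean hearts and between 63.8 and 73.8 CPM in all obese groups, and Fabp3 stayed between 2388 and 2801 CPM in all 6 groups.

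Variation from heart to heart within groups was then compared between the genes. After centring on group means, 17 of 28 pairs of the 8 genes correlated over the 60 heart libraries at a Benjamini-Hochberg adjusted p under 0.05 (permutation within groups, 100000 permutations, two-sided), 13 positively and 4 negatively. The smallest r among these 17 was 0.32 in size, which 60.7% of the 28 pairs and 40.7% of all pairs of 13193 genes reached. Since plate enters these values, the pairs were also centred and permuted within group and plate, a choice made after seeing the data. Then 11 pairs passed, 10 positively and 1 negatively, of which 10 were among the 17 with the same sign. The smallest r among the 11 was 0.37 in size, which 42.9% of the 28 pairs and 15.8% of all pairs reached. Lpl and Acsl1 had Pearson's r of 0.86 and Spearman's rho of 0.86 (permutation p = 1e-05 for each, the smallest possible; adjusted p = 5.60e-05 and 4.67e-05), with r of 0.85 on plate 1, 0.71 on plate 2 and 0.84 without the 2 libraries farthest from the median of Lpl. Angptl4 and Lpl had r of -0.61 and rho of -0.63 (permutation p = 1e-05 for each; adjusted p = 5.60e-05 and 4.67e-05) and r was negative in 6 of 6 groups. It was -0.57 without the 2 farthest libraries, -0.59 on plate 1 and -0.23 on plate 2. Lpl itself was higher on plate 1, with 2295 ± 479 CPM on plate 1 and 1503 ± 256 CPM on plate 2 in the combination group (SD, n = 5 each). Angptl4 and Ucp3 had r of 0.52 and rho of 0.50 (permutation p = 0.000130 and 0.000200; adjusted p = 0.000404 and 0.000622), with 0.51 without the 2 farthest libraries, 0.51 on plate 1 and 0.57 on plate 2. Angptl4 and Acsl1 had r of -0.52 and rho of -0.54 (permutation p = 2.00e-05 and 1e-05; adjusted p = 9.33e-05 and 4.67e-05), with -0.49 without the 2 farthest libraries, -0.65 on plate 1 and -0.16 on plate 2. Centred on group and plate, r was 0.72 for Lpl and Acsl1 (adjusted permutation p = 0.000280), 0.54 for Angptl4 and Ucp3 (adjusted permutation p = 0.00103) and -0.37 for Angptl4 and Lpl (adjusted permutation p = 0.0301). Angptl4 and Acsl1, at -0.28, no longer passed (adjusted permutation p = 0.101). Other called pairs had r larger in size than the pairs of Angptl4. Ucp2 and Plin5 had 0.80, and 0.75 centred on group and plate (adjusted permutation p = 0.000420). Plin2 and Acsl1 had 0.70, and 0.59 centred on group and plate (adjusted permutation p = 0.00119), with 0.05 on plate 1 and 0.73 on plate 2.

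**Figure D4:**
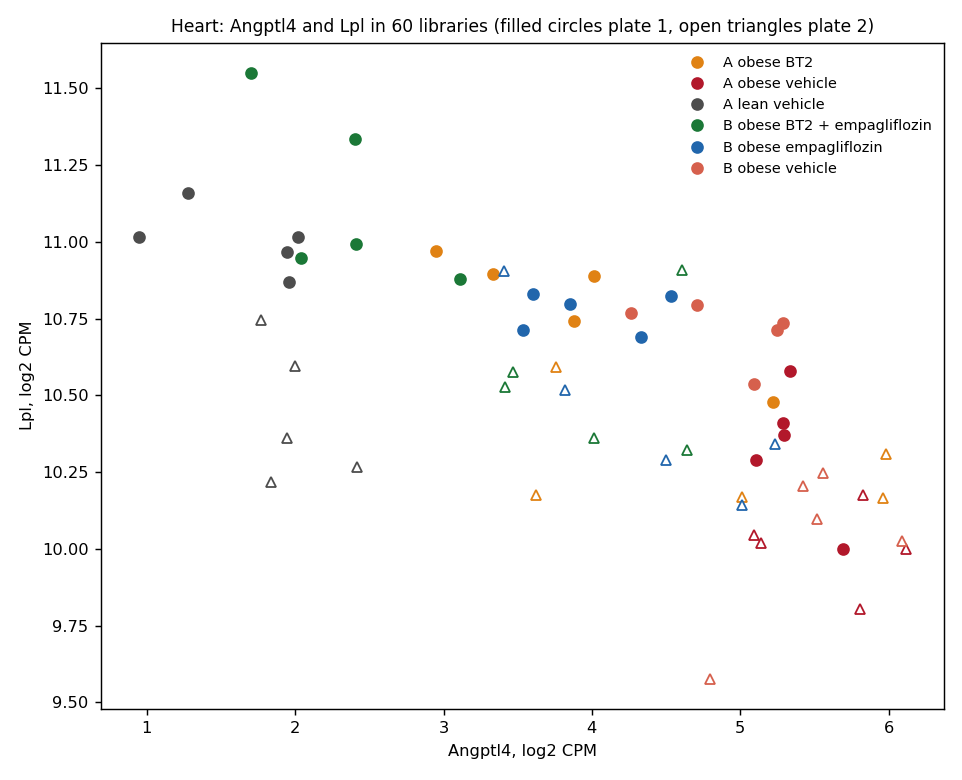
Angptl4 (horizontal axis) and Lpl (vertical axis) as log2 CPM in the 60 heart libraries, coloured by group, with filled circles for plate 1 and open triangles for plate 2. Hearts with more Angptl4 tended to hold less Lpl (r of -0.61 after centring on group means and -0.37 after centring on group and plate), and the mean of Lpl was higher on plate 1 than on plate 2 in 6 of 6 groups.

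The genes whose pattern over the 60 heart libraries, centred on group means, was most like each of the 8 were also looked up among 13193 genes, as a description. For Angptl4 they were Txnip (r of 0.81), Plat (0.70) and Slc25a22 (0.70). For Ucp3 they were Retsat (0.72) and Gpd1 (0.66), and for Ucp2 Map7d1 (0.88), Ppp1r13l (0.85) and Dok7 (0.84). Plin2 was closest to Lonp2 (0.81), Acot2 (0.80) and Hsd17b4 (0.78), and Plin5 to Esrra (0.92), Cdc37 (0.92) and Ptpa (0.91). Lpl was closest to Synj2bp (0.95), Tmem65 (0.94) and Marchf6 (0.94), Fabp3 to Hsd17b10 (0.89), Ndufa9 (0.87) and Cyc1 (0.83), and Acsl1 to Aldh6a1 (0.99), Nnt (0.98) and Uqcrc2 (0.98). These libraries share plates and depth, which enter such correlations.

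In kidney, 7 of the 8 genes could be tested for obesity, since Ucp3 had group medians of 0 to 5.00 counts. Angptl4, Ucp2 and Plin2 rose in obese vehicle kidneys relative to lean vehicle kidneys and Lpl and Acsl1 fell, 5 of 7, where 32.0% of all genes passed. Angptl4 averaged 40.1 ± 6.95 CPM in obese kidneys and 8.69 ± 9.91 CPM in lean kidneys, with a lean median of 5.19 CPM. One lean kidney, replicate 8, held 36.5 CPM of Angptl4, 597 CPM of Lpl, 1562 CPM of Fabp3 and 61.2 CPM of Ucp3, and is a library with muscle transcripts. The log2 fold change of Angptl4 was 2.25 ± 0.35 (adjusted p = 5.31e-05, edgeR), and 2.90 ± 0.15 without the libraries carrying another tissue's transcripts. In the same pair of settings Lpl stood at -1.11 ± 0.29 (adjusted p = 0.00582) and -0.64 ± 0.09, Ucp2 at 1.17 ± 0.25 (adjusted p = 0.00107) and 1.56 ± 0.12, and Plin2 at 0.80 ± 0.09 (adjusted p = 8.80e-07) and 0.88 ± 0.06. Plin2 averaged 139 ± 12.9 CPM in obese kidneys and 81.0 ± 13.5 CPM in lean kidneys, with no overlap, which 3.10% of all genes showed. Within plates, Angptl4 had 2.80 on plate 1 and 1.81 on plate 2 (adjusted p = 0.0843), and Lpl -0.66 on plate 1 and -1.54 on plate 2 (adjusted p = 0.0864). Plate 2 holds lean kidney replicate 8.

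Markers of other cell types differed between these kidneys as well. Of 7 macrophage markers 5 were higher, with sums of 138 to 272 CPM in obese kidneys and 95.7 to 167 CPM in lean kidneys. Of 6 endothelial markers 5 were lower, with sums of 240 to 396 CPM in obese kidneys and 413 to 499 CPM in lean kidneys. Of 7 tubule markers 4 were lower, with sums of 8615 to 10490 CPM in obese kidneys and 6627 to 15266 CPM in lean kidneys. The 1 liver marker tested, Serpina1, was higher at 1.78 on the log2 scale. Their part in the results was not tested.

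With BT2 alone, Acsl1 and Plin5 rose in kidney, 2 of 7, where 5.67% of all genes passed. Acsl1 averaged 402 ± 78.4 CPM in BT2 kidneys (n = 9) and 199 ± 27.7 CPM in vehicle kidneys (n = 10), with no overlap, which 0.496% of all genes showed. Its log2 fold change was 1.00 ± 0.11 (adjusted p = 2.45e-06, edgeR), and that of Plin5 was 1.00 ± 0.20 (adjusted p = 0.00364) at 2.77 ± 0.659 CPM in BT2 kidneys and 1.42 ± 0.632 CPM in vehicle kidneys. Angptl4 stood at 39.3 ± 8.30 CPM in BT2 kidneys and 40.1 ± 6.95 CPM in vehicle kidneys (adjusted p = 0.865). Without the shallow BT2 replicate 2, Acsl1 had 1.03 ± 0.10 (adjusted p = 5.59e-07, edgeR) and Plin5 1.00 ± 0.20 (adjusted p = 0.00403). Plin2 at -0.26 ± 0.07 then passed as well (adjusted p = 0.0219). With empagliflozin alone, 0 of 6 tested genes passed (1 at an unadjusted p under 0.05, and 1, Angptl4, with DESeq2), where 1.06% of all genes passed. Angptl4 had -0.58 ± 0.16 (adjusted p = 0.0671), with 10 of 10 empagliflozin kidneys below the vehicle median, and was -0.22 on plate 1 (adjusted p = 0.611) and -0.96 on plate 2 (adjusted p = 0.0183).

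With BT2 plus empagliflozin, 6 of 7 genes changed in kidney, where 32.1% of all genes passed. Angptl4 averaged 21.7 ± 4.44 CPM in combination kidneys (n = 10) and 51.8 ± 11.9 CPM in vehicle kidneys (n = 9), with no overlap, which 3.47% of all genes showed, and its log2 fold change was -1.26 ± 0.12 (adjusted p = 6.45e-08, edgeR). Ucp2 at -0.69 ± 0.10 and Plin2 at -0.37 ± 0.07 also fell. Plin5 at 1.65 ± 0.30, Acsl1 at 0.77 ± 0.08 and Lpl at 0.56 ± 0.18 rose. Lpl had 0.16 on plate 1 (adjusted p = 0.591) and 0.99 on plate 2 (adjusted p = 0.00514). Against empagliflozin alone, 5 of 7 changed, where 31.7% of all genes passed, with Angptl4 at -0.67 ± 0.16 (adjusted p = 0.00253; -0.94 on plate 1 and -0.41 on plate 2, where it did not pass alone) and Acsl1 at 0.68 ± 0.09 (adjusted p = 7.03e-06). Markers moved with the combination too. Against vehicle, 5 of 6 tested macrophage markers were lower, with sums of 74.4 to 133 CPM in combination kidneys and 110 to 225 CPM in vehicle kidneys. Of 7 tubule markers 2 were higher and 2 lower, with sums of 6046 to 9133 CPM in combination kidneys and 7467 to 9833 CPM in vehicle kidneys. The cardiomyocyte markers Actc1 and Myl2 were called higher, with sums of 6.37 to 1317 CPM in combination kidneys and 7.93 to 16.3 CPM in vehicle kidneys. The medians of these sums were close, at 11.9 CPM in combination kidneys and 10.9 CPM in vehicle kidneys. Combination replicates 1, 4, 5 and 7 carried another tissue's transcripts by a criterion that uses Actc1 itself, while the study B vehicle kidneys were not flagged. The skeletal muscle markers Tnnt3 and Myh4 were lower. The endothelial marker Vwf was higher and the adipocyte marker Cidec lower. Their part in the results was not tested.

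Whether the effects differed between organs was tested as an interaction, heart minus kidney. The fit held no term for the rat, and whether same-numbered heart and kidney libraries came from the same rat was not settled. Ucp3 is counted here, but it had a median of 1.00 counts over the kidney libraries and did not pass the low-count filter in kidney alone. Its organ differences rest on few kidney counts and are not read as a difference of effects. For obesity 6 of 8 genes passed, where 14.0% of all genes did, and 3 of them passed without the libraries carrying another tissue's transcripts or with the replicate number as a block. These 3 were Angptl4 at 1.63 ± 0.39 (adjusted p = 0.00436; 0.86 ± 0.22 without those libraries), Ucp2 at -0.84 ± 0.28 (adjusted p = 0.0389; -1.29 ± 0.18) and Plin2 at -0.36 ± 0.11 (adjusted p = 0.0215; -0.47 ± 0.09). For BT2, 2 passed, where 0.528% of all genes did, Acsl1 at -1.04 ± 0.17 (adjusted p = 0.000541) and Plin5 at -1.15 ± 0.22 (adjusted p = 0.00471). With the replicate number as a block Plin5 no longer passed (adjusted p = 0.101). For empagliflozin 0 of 8 passed (1 at an unadjusted p under 0.05, and 0 with DESeq2), where 1.39% of all genes did. For the combination 4 passed, where 16.2% of all genes did. They were Plin5 at -1.64 ± 0.28, with the few kidney counts given above, Acsl1 at -0.80 ± 0.14, Ucp2 at 0.45 ± 0.12 and Plin2 at 0.29 ± 0.09. Plin2 no longer passed with the replicate block (adjusted p = 0.0749) or without the libraries carrying another tissue's transcripts (adjusted p = 0.129). The difference for Angptl4 was -0.73 ± 0.28 (adjusted p = 0.0642).

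The gene RGD1565355, described in the deposited tables as platelet glycoprotein 4-like, was looked at after its description was seen, because CD36 is also known by that protein name. It is not counted among the 8, and whether it stands for Cd36 was not settled. It averaged 611 ± 167 CPM in obese vehicle hearts and 522 ± 123 CPM in lean vehicle hearts, a log2 fold change of 0.25 ± 0.10 that did not pass (adjusted p = 0.167), and it passed in none of the other comparisons.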

How the data were processed

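The authors deposited expected counts per gene in tables of original and repeat runs, made with STAR 2.7.3a and Salmon 1.5.2 on mRatBN7.2, per the submitters' processing notes. They also deposited signal values, counts scaled by size factors, beside log2 fold changes and p-values; DESeq2 1.34.0 is named in the same notes. Repeat runs (43 libraries) were summed and counts rounded, since 6.61% of values were not whole, and 82 columns that matched no sample were not used. Each rat gave 1 library per group, per the series text, which names whole kidney and kidney cortex without saying which library is which. Counts were tested with edgeR 4.0.16 (R 4.3.3; low counts filtered, TMM, quasi-likelihood F test, plate as covariate, Benjamini-Hochberg adjustment over all genes), with 10 libraries per group. CPM used TMM factors over the 60 libraries of an organ. The scripts were tested on simulated data. DESeq2 1.42.0, other filters and scalings, single plates and subsets of libraries were the alternatives. Counts do not give levels per transcript length, so levels are not compared between genes.

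The genes and lists were chosen with earlier results of these data known. Named in the text are the 9 genes, up to 4 called genes per list and comparison with the smallest adjusted p, 7 genes of the lists in the heart comparisons (Ppara, Pparg, Ppard, Pdk4, Gpihbp1, Pnpla2 and G0s2), and the 3 most correlated genes. Called cell type markers were named after their values were seen. Results of some genes that this rule would name are not reported here.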

Additional observations from a re-analysis of the deposited data

Results flagged for a closer look

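In 18 of 90 gene and group combinations, 1 library lay apart from the other 9 by Dixon's criterion, which chance alone meets in about 1 of 20. Lean kidney replicate 8, a library with another tissue's transcripts, held 36.5 CPM of Angptl4, 76.5 of Ucp2, 118 of Plin2, 19.0 of Plin5, 597 of Lpl, 1562 of Fabp3 and 499 of Acsl1, each the highest of its group. In lean hearts replicate 7 was lowest, with 6.66 CPM of Ucp3 and 1725 CPM of Fabp3. Combination heart replicate 7 held 49.0 CPM of Ucp3 and empagliflozin heart replicate 8 held 3381 CPM of Fabp3, both the highest. In combination kidneys, replicate 3 was lowest in Angptl4 at 11.3 CPM and in Ucp2 at 42.9 CPM, and replicate 7 was highest in Fabp3 at 207 CPM. Empagliflozin kidney replicate 1 held 199 CPM of Ucp2 and 44.2 CPM of Fabp3. Angptl4 was lowest in obese vehicle kidney replicate 7 of study A at 25.6 CPM, and Lpl in BT2 kidney replicate 6 at 44.1 CPM.

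Effects in heart minus those in kidney differed from 0 in the interaction test (edgeR). For obesity the log2 differences were 1.63 for Angptl4, 4.45 for Ucp3, -0.36 for Plin2, 1.69 for Plin5, -0.84 for Ucp2 and 1.16 for Fabp3. Without the libraries carrying another tissue's transcripts, Ucp3 stood at 0.68, Plin5 at 0.48 and Fabp3 at 0.40, and these 3 were no longer called. Ucp3 had a median of 1.00 counts over the kidney libraries and did not pass the low-count filter in kidney alone. For BT2 the differences were -1.04 for Acsl1 and -1.15 for Plin5. For the combination they were -1.64 for Plin5, -0.80 for Acsl1, 0.45 for Ucp2 and 0.29 for Plin2. Plin5 held few counts in the kidneys of study B, as given above.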

How the results depend on the processing

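Of 1622 values of single genes recomputed under the alternatives, 1504 kept their side of the threshold, 45 of them uncalled values that changed sign, 96 lost a call, 21 gained one, and 1 called value reversed, Acsl1 for empagliflozin in heart at -0.24 on plate 1 alone. Counts of called genes moved as follows, and the causes were not tested. In heart, obesity gave 4, against 6 with all 6 groups and 1 on plate 2 alone, and BT2 gave 0, and 1 with DESeq2. Empagliflozin in heart gave 1, against 2 with DESeq2, 4 on plate 1 alone, 0 without the plate term, with the replicate block, on plate 2 alone, with all 6 groups and with the original run, and 0 to 2 leaving out 1 library, an alternative chosen after seeing the data. The combination in heart gave 5, against 3 without a low-count filter and with all 6 groups, 2 without the plate term, without libraries of other tissue, on plate 1 alone and with the original run, 0 on plate 2 alone, and 3 to 5 leaving out 1 library. The combination against empagliflozin in heart gave 0, and 1 with DESeq2 and on plate 1 alone. In kidney, obesity gave 5, against 3 with DESeq2, which gave no adjusted p for Angptl4, Plin5, Lpl and Fabp3, and 1 on plate 2 alone. BT2 gave 2, and 1 on plate 2 alone and with all 6 groups, empagliflozin gave 0, and 1 with DESeq2 and on plate 2 alone, and the combination against empagliflozin gave 5, and 3 on plate 2 alone. The organ difference gave 6 for obesity, and 3 with the replicate block and without libraries of other tissue, 2 for BT2, and 1 with the replicate block, and 4 for the combination, and 2 without the plate term. Correlated pairs of genes in heart were 17, and 11 when centred and permuted within group and plate. The replicate block was an alternative because same-numbered libraries did not all correlate over 0.1 (8 of 10 pairs for obesity and 6 of 10 for BT2 in heart, lowest -0.17), and numbers also mark the plate. Heart and kidney libraries of one group and number correlated over 0.1 in 38 of 60 pairs, and in 8 of 60 once centred on group and plate. Plates of 5 libraries per group limit what single plates can show, and some obesity values in kidney moved without lean replicate 8, as given there.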
